A study of Salmo salar with 96 samples.

Results

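MYF5a, MYF5b and SNAI1 are 3 of the 220 genes in an Atlantic salmon expression panel. They encode early regulators of mesoderm and were picked out by gene symbol, with earlier results of these data known. All 3 were at their highest whole-body level in the youngest embryos and at their lowest in fry, and in the dissected tissues the MYF5 paralogs were high in muscle and ovary whereas SNAI1 was high in ovary. MYF5 is a basic helix-loop-helix transcription factor that commits cells of the somites to the skeletal muscle lineage, and in vertebrates it also marks muscle satellite cells. SNAI1 (Snail) is a zinc finger repressor that switches off E-cadherin and other epithelial genes when cells leave an epithelium, as during gastrulation and neural crest migration. The paired MYF5 genes follow the genome duplication in the ancestor of salmonids. In the salmon annotation of RefSeq (Ssal_v3.1), the MYF5a probe matched LOC100136547, which carries the synonym myf5, the MYF5b probe matched LOC106576326, and the SNAI1 probe matched snai1b.

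The 96 samples were 18 whole animals of early stages and 78 tissue samples. The early animals were of the hatchery-maintained Neva strain. Embryos were sampled at 186 degree days (°d, days after fertilization multiplied by temperature; 4 animals) and at 258 °d (4 animals), and they were joined by 4 alevin of 436 °d as well as 6 fry. Of the fry, 2 were sampled at 1119 °d on a normal diet, 2 at 1320 °d on a normal diet and 2 at 1320 °d on a low fat diet, and the yolk sac of embryos and alevin had been removed. The tissues came from 3-year-old parr, the freshwater juvenile. Of these, 4 were reared in the hatchery (Neva, normal diet, immature, fish 1 and 2 male, fish 3 and 4 female). The other 4 were caught in the wild (Inarijoki, all male, fish 5 and 6 immature, fish 7 and 8 mature). Blood came from 4 immature hatchery fry of the Neva strain at 2212 °d, 2 on each diet. Not every tissue was taken from every fish.

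Levels are normalized counts, the raw barcode counts scaled by 6 reference genes, and 20 normalized counts is the background level that the study set. Raw totals ran from 201761 to 480697 counts in the whole animals and from 47598 to 949899 in the tissues. Negative control probes, averaged and multiplied by the same factor, were at 6.26 to 17.4 in the whole animals and 3.38 to 69.8 in the tissues. Scaling factors of 6.22 in the muscle of hatchery fish 4 and 6.73 in the wild fish 5 liver lay above the limit of 3.0 set by the study, and both samples are left out of means and tests. Of the 18 whole animals, MYF5a and MYF5b were at 20 or above in 18 each and SNAI1 in 16. Of the 76 tissue samples kept, 14 reached 20 for MYF5a, 41 for MYF5b and 36 for SNAI1, and 14, 27 and 25 exceeded the mean of their own negative controls by more than 2 SD. In whole animals and bulk tissue, fewer cells of a type and less RNA per cell cannot be told apart.

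The first comparison followed the 3 genes through early development. MYF5a fell from 318 ± 22.8 normalized counts (SD, n = 4) in 186 °d embryos to 144 ± 25.9 (SD, n = 6) among fry, a 2.21-fold difference of the means, with a log2 change of -1.14 ± 0.12 (SE, adjusted p = 2.52e-08, edgeR). MYF5b fell 2.62-fold, from 407 ± 33.8 to 155 ± 37.1 (-1.39 ± 0.15, adjusted p = 5.15e-08), and SNAI1 fell 5.92-fold, from 142 ± 3.66 to 24.0 ± 6.47 (-2.56 ± 0.16, adjusted p = 3.75e-11). Over this span 37.3% of the 169 genes tested were lower in fry. Only 1 of the 6 fry exceeded its own negative controls by more than 2 SD for SNAI1, and with the controls subtracted its log2 change was -3.56. Of the 3 adjacent steps, the MYF5 paralogs passed the test only at the step from alevin to fry, whereas SNAI1 also fell between the 2 embryonic ages.

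For MYF5a, the 186 °d embryos measured 333.9, 341.84, 297.81 and 299.78 normalized counts and the 258 °d embryos 305.47, 323.6, 265.48 and 301.45. The alevin measured 274.13, 249.8, 231.09 and 271.78, and the fry 147.5, 176.22, 142.97, 97.22, 147.55 and 154.49. The ranges of neighbouring stages overlapped up to alevin, and every fry lay below every alevin. For MYF5b, the values were 416.23, 449.34, 371.21 and 390.86 at 186 °d, and 381.84, 386.23, 292.85 and 312.21 at 258 °d. They were 308.17, 260.86, 235.6 and 247.2 in alevin and 154.21, 181.7, 128.78, 95.39, 178.61 and 192.04 in fry. Here too no fry reached the lowest alevin.

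SNAI1 was tightly grouped at 186 °d, with 137.78, 146.18, 144.15 and 141.13 normalized counts, and lower at 258 °d, with 118.02, 98.82, 85.45 and 93.31. Alevin had 100.27, 66.37, 70.41 and 88.77, and fry had 22.63, 26.48, 32.45, 15.59, 18.12 and 28.97. The 2 embryonic ages did not overlap, nor did alevin and fry, and 2 of the 6 fry were under the background level of 20. The negative controls of the fry averaged 12.96, and SNAI1 in fry was on average 1.88 times them.

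**Figure D1:**
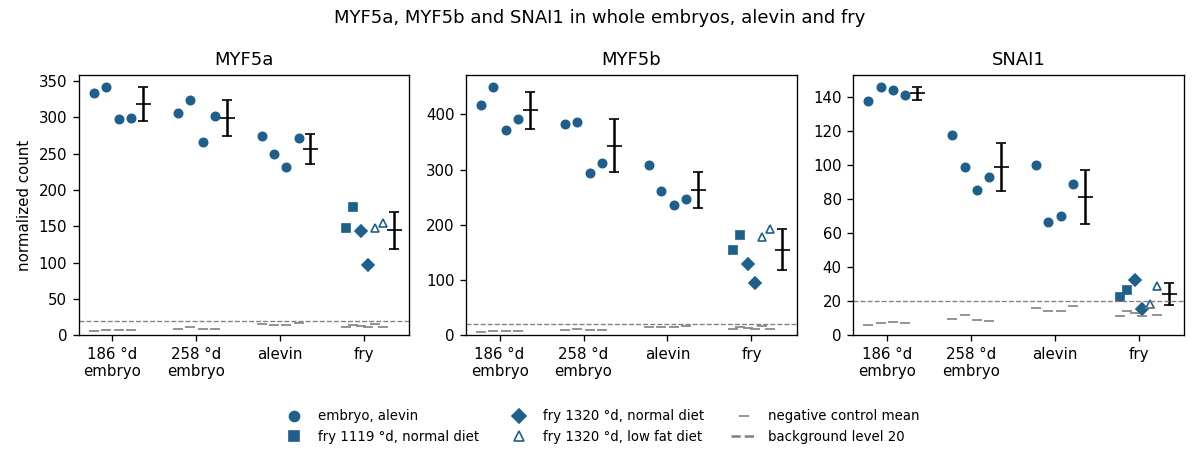
Normalized counts of MYF5a, MYF5b and SNAI1 in each whole animal, by stage (points), with the stage mean and SD (black), each sample's own negative control mean (grey dashes) and the background level of 20 (dashed line). The lowest fry has 97.22 counts of MYF5a and 95.39 of MYF5b, while SNAI1 in fry lies between 15.59 and 32.45, around the background level.

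In edgeR's quasi-likelihood test with Benjamini-Hochberg adjustment, 30.2% of the 169 genes tested passed from 186 to 258 °d, 49.7% from 258 °d to alevin and 61.5% from alevin to fry. At the first step SNAI1 was lower by a log2 change of -0.53 ± 0.16 (SE, adjusted p = 0.0141), and MYF5a (-0.09 ± 0.12, adjusted p = 0.620) and MYF5b (-0.25 ± 0.16, adjusted p = 0.243) did not pass. From 258 °d to alevin none of the 3 passed: MYF5a had -0.22 ± 0.13 (adjusted p = 0.153), MYF5b -0.38 ± 0.16 (adjusted p = 0.0585) and SNAI1 -0.28 ± 0.17 (adjusted p = 0.168), beside a median of 0.21 over all genes tested. With trimmed mean (TMM) scaling, which moved that median to 0.011, the same differences were -0.42, -0.59 and -0.48 and all 3 passed (adjusted p = 0.0144, 0.0084 and 0.0371). From alevin to fry MYF5a changed by -0.83 ± 0.12 (adjusted p = 6.18e-06), MYF5b by -0.77 ± 0.15 (adjusted p = 2.25e-04) and SNAI1 by -1.75 ± 0.17 (adjusted p = 1.36e-07), where the median over all genes was -0.27. TMM scaling moved that median to -0.0325 and made the changes smaller, at -0.60, -0.53 and -1.52. All 3 still passed (edgeR, adjusted p = 4.27e-04, 0.00714 and 3.03e-06). Of the reference genes, PRKAR1Aa and VDRAb are reported by the paper as upregulated from alevin to fry. Scaling by the 4 reference genes without them moved that median to -0.127, and the falls of the 3 genes kept their calls. The first step of SNAI1 had an adjusted p of 0.0581 without 258 °d embryo 3, which was its lowest sample of that age.

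Cartridges were inferred here and below from the start of each sample's run name, and the sample labels do not name them. By these run names the early samples were read on 3 cartridges, of which 1 held 12 samples that covered every stage, the fry among them being the 2 of 1119 °d. Within that cartridge, the step from alevin to fry was -0.66 for MYF5a (adjusted p = 4.02e-04), -0.65 for MYF5b (adjusted p = 0.0026) and -1.72 for SNAI1 (adjusted p = 5.12e-05). The step from 186 to 258 °d was 0.0015 for MYF5a, -0.15 for MYF5b and -0.53 for SNAI1 (adjusted p = 0.996, 0.416 and 0.0243). The embryos, alevin and 1119 °d fry were reared at another site than the 1320 °d fry, so for those fry age, site and cartridge cannot be told apart.

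Among the other panel genes of mesodermal development, the SNAI2 (Slug) paralogs, which encode the sister repressor of SNAI1, passed the test only at the step from alevin to fry. SNAI2a averaged 543, 588 and 544 normalized counts at 186 °d, 258 °d and in alevin and 244 in fry, and SNAI2b 737, 701, 595 and 311. From alevin to fry SNAI2a changed by -1.16 (adjusted p = 1.53e-06) and SNAI2b by -0.94 (adjusted p = 1.06e-06), and the earlier steps of both did not pass (adjusted p of 0.116 or more). Of 11 measured genes for TEAD factors, which bind DNA, and their cofactors such as VGLL3 and YAP1, 10 fell and none rose from alevin to fry, led by TEAD1c (-1.28, adjusted p = 2.25e-10). Their median change was -0.47, where 18.9% of all genes tested were higher and 42.6% lower. Of 15 chondrogenic and osteogenic genes measured, 3 rose and 8 fell, with a median of -0.35. SPP2, a secreted phosphoprotein that was also listed as a liver marker, rose by 3.30 (adjusted p = 6.12e-05, edgeR). MMP13a, a collagenase, rose by 2.78 (adjusted p = 4.43e-07), whereas MMP13c fell by 2.00 (adjusted p = 3.22e-05). The myogenic list was MYF5, MYF6, MYOD, MYOG, PAX3, PAX7, MEF2 and MSTN, and of these only the MYF5 paralogs were on the panel.

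Fry age and diet were compared with 2 fry on each side. MYF5b was higher on the low fat diet, at 178.61 and 192.04 normalized counts against 128.78 and 95.39 on the normal diet at 1320 °d. The log2 difference was 0.73 ± 0.18 (adjusted p = 0.0249, edgeR), in a comparison in which 4.60% of 174 genes passed. It rested on few animals, since the adjusted p was 0.252 without the normal diet fry of 95.39 and 0.0976 without the low fat fry of 192.04. MYF5a differed by 0.34 ± 0.17 (adjusted p = 0.243) and SNAI1 by 0.01 ± 0.34 (adjusted p = 0.991). Between 1119 and 1320 °d on the normal diet the differences were -0.43 ± 0.16 for MYF5a, -0.59 ± 0.18 for MYF5b and -0.04 ± 0.33 for SNAI1 (adjusted p = 0.174, 0.0810 and 0.971), where 4.02% of genes passed. Without the 1320 °d fry of 142.97 and 128.78, the age differences became -0.73 for MYF5a and -0.81 for MYF5b (adjusted p = 0.0237 and 0.0307).

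The MYF5 paralogs were next set against each other within each sample, a ratio that does not depend on scaling. The log2 ratio of MYF5a to MYF5b averaged -0.35 ± 0.041 (SD, n = 4) at 186 °d and -0.19 ± 0.12 (n = 4) at 258 °d. It was -0.031 ± 0.13 (n = 4) for alevin and -0.086 ± 0.18 (n = 6) for fry. MYF5b was thus counted more often in every embryo, and the paralogs were close in alevin. The adjacent steps were 0.16, 0.16 and -0.055 (two-sided exact permutation test, adjusted p = 0.257, 0.257 and 0.581 over 3 steps). With 4 samples against 4, that test cannot go below 0.0286. In muscle the ratio was -0.42 ± 0.22 (n = 6), below 0 in 6 of 6 samples (exact sign-flip permutation test, p = 0.0312, the smallest that 6 samples allow), and in ovary it was -0.52 ± 0.22 (n = 2). The fry on the low fat diet had the lowest ratios among fry. The capture efficiency of the paired probes was not tested, so only differences of the ratio between groups compare levels. Any cross-hybridization between the paralogs was not tested either, and it could make those differences smaller.

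**Figure D2:**
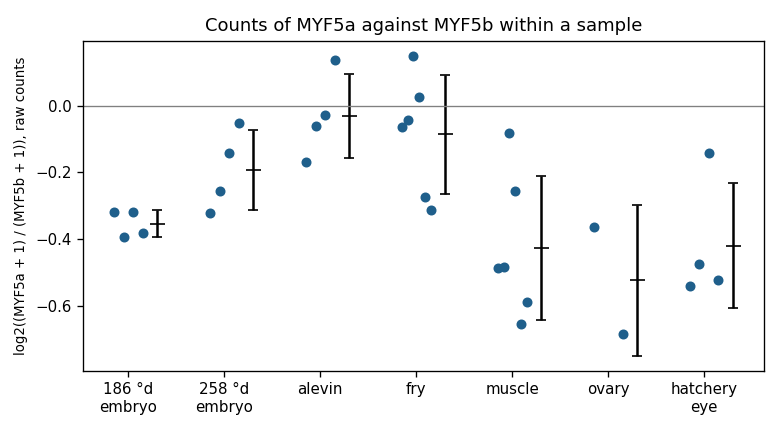
Log2 ratio of MYF5a to MYF5b raw counts (1 added to each) in each sample, with the mean and SD of each group at its right and a line at 0 where the counts are equal. The 186 °d embryos lie close to their mean of -0.35, the alevin and fry scatter around -0.031 and -0.086, and all 6 muscle, 2 ovary and 4 hatchery eye samples are below 0.

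With stage means removed, the paralogs varied together among the 18 animals (Pearson r = 0.830, permutation p = 6e-05, adjusted p = 0.00072 over 12 pairs; Spearman rho = 0.868, permutation p = 2e-05, adjusted p = 0.00024). The coefficient was 0.709 without the 2 animals farthest from the median of MYF5a and 0.769 within the cartridge of 12 samples. SNAI1 had r = 0.530 with MYF5a and r = 0.552 with MYF5b (adjusted p = 0.131 for each), rho = 0.573 and 0.550 (adjusted p = 0.155 for each), with permutation p-values of 0.0326 and 0.0307 before adjustment for r. Without the 2 farthest animals these coefficients were 0.368 and 0.406, and within the cartridge 0.669 and 0.714. The age-at-maturity genes VGLL3a, AKAP11a and SIX6a, which the study is about, gave r between -0.403 (SNAI1 with AKAP11a) and 0.0448 (MYF5b with VGLL3a), and none of these 9 pairs passed (adjusted p of 0.731 or more for r). All animals shared the scaling by the same 6 reference genes, and cross-hybridization between the MYF5 paralogs was not tested.

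The dissected tissues were compared next, each of the 15 tissues against the mean of the other 14. Blood came from fry of another rearing site, and its RNA was stored and extracted by another method. For blood, tissue, age, site and RNA preparation therefore cannot be told apart. The MYF5 paralogs stood out in muscle and ovary. SNAI1 was near background in muscle and averaged 44171 counts in ovary.

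In muscle, MYF5a measured 123.57 and 113.2 normalized counts in hatchery fish 1 and 3 and 208.22, 132.03, 78.45 and 104.74 in wild fish 5 to 8. MYF5b measured 173.4 and 158.73, and 220.62, 157.74, 123.91 and 157.89 in the same fish. Every muscle sample kept lay above every kept sample of the tissues other than ovary and gill, although the highest eyes came close, at 77.09 and 111.21. SNAI1 in the same muscle samples was 11.96, 8.61, 24.79, 6.86, 6.24 and 4.69, or 0.729 times the negative controls on average. The muscle sample left out, of hatchery fish 4, had 124.45, 87.11 and 24.89 counts of MYF5a, MYF5b and SNAI1 with negative controls at 28.78. Against the other tissues muscle was higher by 3.42 ± 0.27 for MYF5a (adjusted p = 5.21e-18, edgeR) and 2.81 ± 0.28 for MYF5b (adjusted p = 6.50e-14), where 17.8% of 208 genes were higher. Of the muscle markers listed (MYF5, MYOD and MYOG) the panel held only the MYF5 paralogs themselves, so the muscle label could not be checked independently.

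Ovary was taken only from hatchery females 3 and 4. MYF5a measured 228.41 and 102.52 normalized counts there and MYF5b 294.26 and 165.11, which overlapped the range of muscle. Against the other tissues ovary was higher by 3.84 ± 0.38 for MYF5a (adjusted p = 1.12e-14) and by 3.32 ± 0.40 for MYF5b (adjusted p = 1.94e-11), where 42.8% of genes were higher. Testis held 9.97 and 9.55 counts of MYF5a in immature males 1 and 2 and 5.41 and 5.53 in mature males 7 and 8, all below 20. MYF5b in the same testes was 14.95, 22.29, 35.14 and 27.66. No testis reached an ovary for either paralog.

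SNAI1 in ovary measured 39416.82 and 48925.58 normalized counts, against 33.64 and 28.66 in immature testis and 27.03 and 35.95 in mature testis. It took 38311 of 433595 raw counts in the ovary of fish 3, or 8.84% (exact 95% binomial interval 8.75 to 8.92%), and 45337 of 416911 in that of fish 4, or 10.9% (10.8 to 11.0%). These intervals cover counting error only. No other endogenous gene of the panel had a higher count in either ovary. In immature testis its share was 0.00630% and 0.00727%.

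Between immature ovary and immature testis the mean of SNAI1 differed 1418-fold, a log2 difference of 10.46 ± 0.55 (adjusted p = 1.70e-05, edgeR). MYF5a differed by 4.06 ± 0.54 and MYF5b by 3.61 ± 0.48 (adjusted p = 5.44e-04 for each), in a comparison in which 43.1% of 181 genes were higher in ovary. MYF5a in immature testis was 1.02 times the negative controls, and with these subtracted the differences were 6.88 and 4.66. Ovaries and immature testes were read on different cartridges, so sex and cartridge cannot be told apart. The SNAI2 paralogs went the other way, SNAI2a at -1.92 (adjusted p = 0.00768) and SNAI2b at -3.30 (adjusted p = 0.00194), and averaged 26.0 and 30.6 counts in ovary. Mature and immature testis did not differ past the threshold for any of the 3 genes, with -0.82 ± 0.69 for MYF5a, 0.76 ± 0.49 for MYF5b and -0.01 ± 0.45 for SNAI1 (adjusted p = 0.476, 0.343 and 0.981), where 11.6% of genes passed. The mature testes were from wild fish and the immature ones from hatchery fish, on other cartridges, so maturity, habitat, river and cartridge cannot be told apart.

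**Figure D3:**
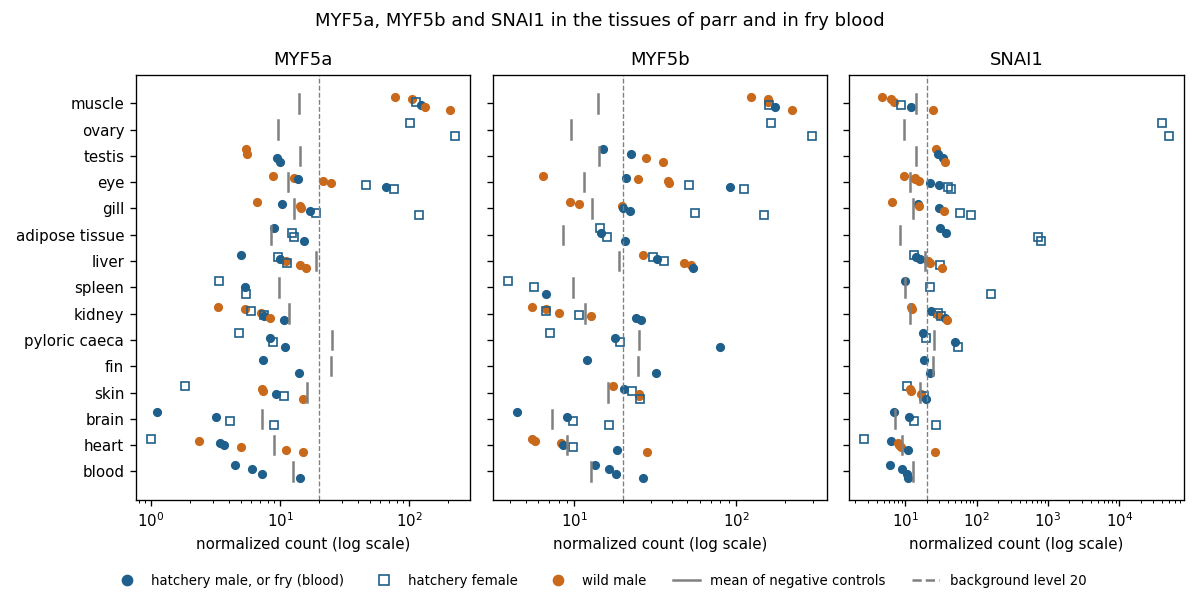
Normalized counts on a log scale of MYF5a, MYF5b and SNAI1 in each parr tissue sample and in fry blood, with blue circles for hatchery males and fry, open squares for hatchery females, orange circles for wild males, the tissue's mean negative control (grey bar) and the background level of 20 (dashed line). The 2 ovaries lie at 39416.82 and 48925.58 counts of SNAI1, and the 2 female adipose samples are the next highest.

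Adipose tissue had the second highest mean of SNAI1, 401 normalized counts, and the mean described neither sex. The females had 804.09 and 730.49 counts and the males 37.21 and 30.49, so that females were 22.7-fold higher without overlap. Adipose tissue was higher than the other tissues by 3.49 ± 0.32 (adjusted p = 6.04e-15, edgeR), where 19.2% of genes were higher, but without both females the difference was -0.075 (adjusted p = 0.903). Between the sexes the log2 difference was 4.51 ± 0.32 (adjusted p = 0.00600), and SNAI1 was the only gene called, 0.752% of 133. Without male 1 or male 2 the difference was 4.65 or 4.36 and the adjusted p 0.210 or 0.167. MYF5a and MYF5b in adipose tissue were at 9.02 to 15.25 and 14.34 to 20.49 counts, with the sexes intermixed for MYF5a.

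Some other genes high in ovary also had higher counts in female adipose tissue. Among 130 genes with a mean of 20 or more in adipose tissue, both females were above both males in 29.2%, and in 23 of the 41 genes other than SNAI1 that averaged at least 1000 normalized counts in ovary. Of the genes with such an ovarian level, 12 besides SNAI1 were under 2% of it in male adipose tissue, a choice made after the values were seen that favours a female excess. In these 12 the excess of the female over the male mean was 1.02 to 2.23% of the ovarian level, with a median of 1.85%, and 1.66% for SNAI1. The estrogen receptor gene ESR1, for instance, averaged 15562 counts in ovary, 229 in female and 71.7 in male adipose tissue, and the gonadotropin-releasing hormone gene GNRH1 2671, 56.2 and 7.43. The part of ovarian RNA in the adipose result was not tested. The adipose samples were read on 3 cartridges, and male 2 (30.49) and female 3 (804.09) shared 1.

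**Figure D4:**
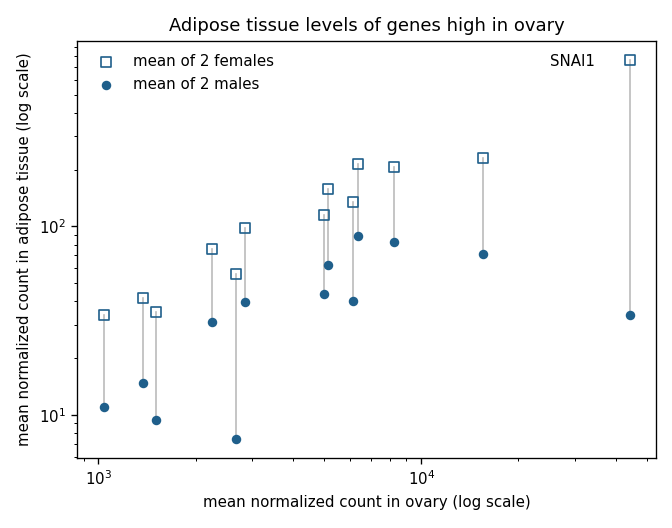
Mean normalized count in adipose tissue of 2 hatchery females (open squares) and 2 hatchery males (filled circles) against the mean in 2 ovaries, both on log scales, for SNAI1 and the 12 other genes with at least 1000 counts in ovary and under 2% of that in male adipose tissue. Each grey line joins the sexes for 1 gene. The female mean is the higher in all 13, which the choice of these genes favours, with SNAI1 at 767 against 33.9.

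SNAI1 varied among the remaining tissues near background. Spleen had 10.07, 22.43 and 157.66 counts in hatchery fish 1, 3 and 4, so that female 4 stood apart. That spleen was also the highest of the 3 in 55.8% of 120 genes, and in 29 of the 38 other genes with at least 1000 counts in ovary. Kidney ran from 12.09 to 37.95 with a median of 28.8, pyloric caeca from 17.97 to 54.91, liver from 13.18 to 32.96 and eye from 9.7 to 44.23. Skin reached 19.49 at most and blood 10.85. SNAI1 was called lower than the other tissues in blood, brain, eye, heart, liver, muscle and skin, where 52.9%, 31.7%, 18.3%, 52.4%, 34.1%, 49.5% and 14.4% of all genes were lower. Its means there were 0.718 to 2.13 times the negative controls, and the mean of the other tissues contains ovary. With the controls subtracted none of these 7 calls remained past the threshold (adjusted p of 0.681 to 1.0).

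The MYF5 paralogs were detected in some eye and gill samples. In hatchery eyes MYF5a was 13.86, 65.81, 46.56 and 77.09 counts and MYF5b 20.79, 91.76, 51.46 and 111.21, in fish 1 to 4. In wild eyes MYF5a was 12.89, 21.55, 24.76 and 8.87 and MYF5b 6.45, 37.71, 38.52 and 24.64, in fish 5 to 8. Against the other tissues the eye was higher by 1.40 ± 0.28 for MYF5a (adjusted p = 2.55e-05) and 0.90 ± 0.29 for MYF5b (adjusted p = 0.00837), where 29.8% of genes were higher. MYF5b did not pass without fish 2 or fish 4 (0.68 and 0.54, adjusted p = 0.0752 and 0.180), or with limma (0.59, adjusted p = 0.108).

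In gill a single sample carried the signal of MYF5a. Hatchery fish 3 had 119.79 counts of MYF5a, 149.4 of MYF5b and 83.45 of SNAI1, while the other hatchery gills had 10.38 to 19.04 of MYF5a, 20.12 to 55.4 of MYF5b and 14.93 to 58.86 of SNAI1. Wild gills had 6.57 to 14.61, 9.39 to 19.76 and 6.57 to 35.51 counts. MYF5a was called higher in gill, by 1.13 ± 0.31 (adjusted p = 0.00168), and without that sample the difference was 0.054 (adjusted p = 0.903). It also did not pass with TMM scaling (0.28), DESeq2 (0.24) or limma (0.52). Of 208 genes, 49.5% were higher in gill. That gill was also the highest of the 4 hatchery gills in 88 of 192 genes.

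In the other tissues MYF5a stayed below 20 counts in every sample. MYF5b exceeded 20 in every liver, at 26.54 to 54.33 with a mean of 40.03 ± 11.35 (SD, n = 7), 2.14 times the negative controls. Liver differed from the other tissues by 0.62 ± 0.33 (adjusted p = 0.0941, edgeR), where 28.8% of genes were higher. MYF5b also reached 20 in 5 of 6 skin and 2 of 8 kidney samples, and in 1 each of adipose tissue, blood, fin and heart. Samples more than 2 SD above their negative controls numbered 2 in skin, 1 each in adipose tissue and heart, and 0 in kidney, blood and fin. Pyloric caeca of fish 1 had 79.07 counts of MYF5b against 7.11 to 19.1 in the other 3, with negative controls at 47.4 in that sample. The paralogs were called lower in brain, heart, kidney and spleen, where 31.7%, 52.4%, 37.0% and 23.6% of all genes were lower, at means of 4.34 to 7.02 counts for MYF5a and 5.40 to 12.5 for MYF5b. These means were 0.483 to 1.35 times the negative controls. With the negative controls subtracted, none of these differences passed, but a lower call was then not possible. Subtraction set the paralogs to 0 throughout some tissues, as it did SNAI1.

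By mean level over the 4 stages and 15 tissues, MYF5a ran in the order 186 °d embryo, 258 °d embryo, alevin, ovary, fry, muscle, eye and gill, and MYF5b in the same order except that muscle came before fry. For MYF5a, neighbours in that order overlapped in their sample ranges except alevin over ovary and muscle over eye, although the overlap does not show equal levels. For MYF5b all neighbours overlapped, and for SNAI1 the order was ovary, adipose tissue, 186 °d embryo, 258 °d embryo, alevin and spleen, with gaps only after ovary and between the embryonic ages. Over these 19 group means on the log2 scale, the panel gene most like MYF5a was MYF5b (r = 0.973), and SIX4, a homeobox gene, was among the 3 most alike (r = 0.744). For MYF5b those 3 included MYF5a and COL12A1c, a collagen (r = 0.728). Those most like SNAI1 were KIF15, a mitotic kinesin (r = 0.889), and the Hippo kinase genes STK3a (r = 0.856) and LATS1a (r = 0.841). The groups share ovary as a high point and these coefficients are a description among 208 genes.

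Wild parr were compared with hatchery parr in eye, gill, heart, kidney, liver, muscle and skin, the somatic tissues sampled from both. Habitat, river of origin, diet and cartridge go together here and cannot be told apart, and all wild fish were male. In the eye all 3 genes were lower in wild fish, MYF5a by a log2 difference of -1.57 ± 0.48 (adjusted p = 0.0138, edgeR), MYF5b by -1.33 ± 0.53 (adjusted p = 0.0456) and SNAI1 by -1.36 ± 0.30 (adjusted p = 0.00234). In that tissue 58.9% of 163 genes passed, and 32.5% of the 163 were lower in wild fish. SNAI1 was 22.17, 29.66, 39.21 and 44.23 counts in hatchery and 15.47, 9.7, 13.76 and 13.8 in wild eyes, without overlap, and no wild eye reached 20. Hatchery fish 1 overlapped the wild fish for both MYF5 paralogs. Among males alone the differences were -1.26 for MYF5a and -1.08 for MYF5b (adjusted p = 0.0725 and 0.143), and MYF5b also missed the threshold when any of fish 2, 4, 5, 6 or 8 was left out (adjusted p of 0.0537 to 0.131).

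In muscle the habitats differed by 0.13 ± 0.44 for MYF5a and -0.02 ± 0.36 for MYF5b (adjusted p = 0.848 and 0.994), with 2 hatchery against 4 wild samples and a median of -0.60 over all genes tested, of which 33.6% passed. TMM scaling moved that median to 0.044 and the difference of MYF5a to 0.75 (adjusted p = 0.165). In gill MYF5b was -2.18 ± 0.80 and MYF5a -1.81 ± 0.94 (adjusted p = 0.0741 and 0.144), and 26.0% of genes passed. The gill value of MYF5b was -2.48 without hatchery fish 2 (adjusted p = 0.0417), -1.22 without hatchery fish 3 (adjusted p = 0.156) and -0.62 among males alone (adjusted p = 0.310), and it was -1.51 with TMM scaling (adjusted p = 0.276).

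Immature wild males had 208.22 and 132.03 counts of MYF5a in muscle and mature wild males 78.45 and 104.74. The highest value, of fish 5, came from a sample with a scaling factor of 2.48 and negative controls at 30.1. The log2 difference of -0.88 ± 0.50 did not pass (adjusted p = 0.761, edgeR), in a comparison in which 0 of 148 genes passed and 8 had an unadjusted p under 0.05. MYF5b differed by -0.42 ± 0.47 (adjusted p = 0.876) and its groups overlapped, with mature fish at 123.91 and 157.89 and immature fish at 220.62 and 157.74.

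Female and male hatchery parr differed in MYF5b of the gill, with 149.4 and 55.4 counts in females 3 and 4 and 22.12 and 20.12 in males 1 and 2. The difference was 2.29 ± 0.55 (adjusted p = 0.0372, edgeR), where 26.7% of 202 genes passed. Without female 3 it was 1.39 (adjusted p = 0.0715), and without male 1 or male 2 it was 2.35 or 2.21 (adjusted p = 0.207 and 0.335). MYF5a (2.38 ± 0.89, adjusted p = 0.0992) and SNAI1 (1.69 ± 0.49, adjusted p = 0.0518) had the same direction there. Both passed with TMM scaling (2.14 and 1.47, adjusted p = 0.00154 and 0.0115), under which 87 genes passed rather than 54. Leaving out 1 fish gave 2.03 to 3.17 for MYF5a and 1.24 to 2.25 for SNAI1. Without female 3 no hatchery gill reached 20 counts of MYF5a (10.38 to 19.04), so MYF5a was not tested in that fit. MYF5a also passed with the controls subtracted (4.72, adjusted p = 0.0379) and SNAI1 with limma (1.67, adjusted p = 0.0486). In the eye the sexes differed by 0.58 ± 0.68 for MYF5a, 0.48 ± 0.69 for MYF5b and 0.67 ± 0.40 for SNAI1 (adjusted p = 0.782, 0.849 and 0.489, edgeR, with 0 of 156 genes called and 17 at an unadjusted p under 0.05). Leaving out 1 fish gave -0.10 to 2.13 for MYF5a and -0.19 to 1.95 for MYF5b, with the highest values without male 2. In gill and eye the sexes, of 2 fish each, were read on different cartridges, so sex and cartridge cannot be told apart there.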

How the data were processed

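The authors hybridized RNA of each sample to nCounter probes for 220 genes, and the deposited raw counts are barcode counts with no normalization. The deposited normalized signal is that count multiplied by a factor per sample, from the geometric mean of 6 reference genes (nSolver software, per the study's methods), and the 2 samples of a factor above 3.0 were left out of means and tests. Recomputed values differed from the deposited ones by at most 0.00942% over 7426 values with raw counts of at least 100.

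Raw counts of 211 endogenous genes were tested with edgeR 4.0.16 (quasi-likelihood, offset from the factor, R 4.3.3) where a gene averaged at least 20 normalized counts in a group, with Benjamini-Hochberg adjustment in each comparison and a threshold of 0.05. The SE given beside an edgeR change is approximate, being the absolute log2 change divided by the square root of its F statistic. DESeq2 and limma on log2(normalized count + 1), TMM scaling, 4 reference genes, negative control subtraction, no filter, blocks and left-out samples were alternatives. On counts simulated for fry against alevin, 100% of 20 genes changed by a log2 of 1 were recovered among 159 genes, and 1 of 119 unchanged genes was called. For wild against hatchery eye, 100% of 20 were recovered and 3 of 112 unchanged genes were called. The simulated counts had the same spread for every gene and no outlying samples. They therefore do not show how the test performs with fewer samples or in more variable tissues. Permutation tests were exact or used 100000 draws.

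The text names the members, up to 4 related genes a comparison with the largest change past the threshold, the age-at-maturity genes and the 3 genes most alike in pattern to each member, of which 1 is not reported here. Exceptions, named after their values were seen, are ESR1 and GNRH1 and, in fish 6, the SNAI2 paralogs, which were otherwise named as a whole list. The members and lists were chosen with earlier results of these data known. Samples of the same fish deviated together only weakly (mean r = 0.124 over 317 pairs of tissues, from -0.408 to 0.513), and the fish is a block in an alternative. Parr samples of a group came from separate fish, except in fin. The 2 fin samples were an adipose fin and a tail fin of hatchery fish 1, tested as 1 tissue, so their spread is not between fish. The labels number the whole animals separately but name no clutch, so their p-values measure only the spread between these samples. The closest replicate pair differed by 3.69 times the chi-square expected from counting. Of the probes, 169 matched RefSeq genes by transcript, and no sequences were used here.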

Additional observations from a re-analysis of the deposited data

Results flagged for a closer look

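Within groups of 4 or more fish, 6 of 48 sets of values had a sample far from the others by Dixon's criterion, which flags about 1 in 20 sets by chance. MYF5a in the gill of hatchery fish 3 was 119.79 normalized counts against 10.38 to 19.04 in the other hatchery gills. MYF5b in the pyloric caeca of hatchery fish 1 was 79.07 against 7.11 to 19.1, in a sample with a scaling factor of 2.73 and negative controls at 47.4. SNAI1 in the liver of hatchery fish 4 was 30.78 against 13.18 to 16.16.

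Wild fish 5 gave the other 3. Its heart had 28.27 counts of MYF5b against 5.48 to 8.3 in the other wild hearts and 26.39 of SNAI1 against 7.89 to 8.61, with negative controls at 17.2. Its muscle had 24.79 counts of SNAI1 against 4.69 to 6.86, with negative controls at 30.1 and a factor of 2.48. The part of background in these values was not tested.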

How the results depend on the processing

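The 95 results were recomputed under up to 29 alternatives, giving 1585 values, of which 1474 kept their direction and side of the threshold. The fall from alevin to fry, the muscle and ovary levels of the MYF5 paralogs and the ovary level of SNAI1 kept theirs in every alternative run. Without both females, the adipose value of SNAI1 turned to -0.075, and with the negative controls subtracted its eye value turned from -0.88 to 0.11. A lower call was not possible for that eye value, since subtraction set SNAI1 to 0 throughout some tissues. From 186 to 258 °d, SNAI1 lost its call with limma (-0.53), with negative controls subtracted (-0.60) and with cartridge as a block (-0.53), and leaving out 1 sample gave -0.62 to -0.47. From 258 °d to alevin, calls were gained with TMM scaling (-0.42 for MYF5a, -0.59 for MYF5b, -0.48 for SNAI1) and DESeq2 (-0.41, -0.58 and -0.47). For MYF5b they were also gained with 4 reference genes (-0.40), in the complete cartridge alone (-0.38, with -0.22 for MYF5a) and without the fry of the low fat diet (-0.38). Leaving out 1 sample gave -0.47 to -0.32, and 4 of 18 such fits gained the call.

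The replicate numbers of the stages are only names: same-numbered samples correlated at -0.012 on average (-0.36 to 0.56 over 24 pairs). With them as a replicate block, fry 5 and 6 left out, MYF5b was -0.38 from 258 °d to alevin (adjusted p = 0.01) and without the block -0.38 (adjusted p = 0.0432); the block changed no call of the stage steps against the fit without it. The fish as a block changed no call of the tissue comparisons against the same fit without it.

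The diet difference of MYF5b was 0.67 with 4 reference genes, past no threshold, and 0.53 to 0.96 without 1 fry. The age difference ran from -0.73 to -0.18 for MYF5a and from -0.81 to -0.38 for MYF5b without 1 fry. In the eye, wild against hatchery, MYF5a missed the threshold with negative controls subtracted (-2.46) and in males alone (-1.26). MYF5b missed it there (-1.61 and -1.08), with limma (-1.34) and with no filter (-1.33), and ran from -1.62 to -1.02 without 1 fish. Leaving out 1 fish gave 4.36 to 4.65 for the adipose sex difference of SNAI1 and 1.39 to 2.83 for the gill sex difference of MYF5b. The muscle paralog ratio ran from -0.49 to -0.38 without 1 fish, where the exact permutation test of 5 samples cannot go below p = 0.0625. The causes were not tested.

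Counts over all genes moved by over 1.5 times in some alternatives: from 7 to 4 for fry age (TMM, 4 reference genes, limma), from 106 to 70 for adipose tissue with negative controls subtracted, and, wild against hatchery, from 49 to 5 (TMM), 31 (limma) and 29 (subtracted) in muscle and from 50 to 13 (TMM) and 21 (DESeq2) in gill. With negative controls subtracted they moved from 137 to 63 in heart, from 109 to 50 in kidney and from 78 to 46 in spleen. In these tissue comparisons a gene that subtraction sets to 0 throughout another tissue cannot be called lower. In female against male gill the counts moved from 54 to 87 with TMM scaling, in wild against hatchery skin from 81 to 50 (TMM) and heart from 44 to 26 (males alone), and in pyloric caeca by sex from 2 to 1 (limma) or 0 (subtracted).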

Other observations

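SNAI2a, the slug paralog of SNAI1, was low in wild fish 6. Its 7 tissue samples had 6.0 to 36.95 normalized counts, whereas the somatic samples of the other wild fish had 20.5 to 470.53. In gill, fish 6 had 36.95 counts against 470.53 and 366.04 in fish 5 and 7, and in skin 18.17 against 440.29 and 302.53 in fish 7 and 8. SNAI2b in the same 7 samples ran from 59.15 to 595.44. The pattern was noticed in the data, rests on 1 fish and was not tested.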
